A study of Mus musculus with 6 samples.

Results

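The regulators of multiciliated cell fate form a set of 10 genes, Gmnc, Mcidas, E2f4, E2f5, Myb, Ccno, Trp73, Foxj1, Rfx2 and Rfx3. They were taken by gene symbol from a table of 55276 genes measured by RNA-seq in the mouse oviduct, and all 10 were among the 17584 genes that passed the filter for testing, which asked for 0.5 RPKM or more in 3 or more of the 6 libraries (RPKM, reads per kilobase of gene, scaled to library depth). PgrCreCdc42f/f oviducts (n = 3 libraries) were compared with Cdc42f/f oviducts (n = 3 libraries), all taken on day 2 of pregnancy from adult littermate females of the C57BL/6 strain. Both groups carried loxP sites around exon 2 of both Cdc42 alleles, and only the PgrCreCdc42f/f females also carried a Cre recombinase expressed from the progesterone receptor gene Pgr, 1 copy of which held the Cre. No group with the Cre alone was compared, so the Cre allele and the loss of Cdc42 cannot be told apart. According to the study, CDC42 protein was lost from the isthmus, the segment before the uterotubal junction, whereas each library held the whole oviduct, and the number of animals per library was not given in the sources used here.

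Multiciliated cells carry many motile cilia on their surface and in the oviduct help to move the egg and the embryo. A secretory or progenitor cell enters this fate when GEMC1 (encoded by Gmnc) and then multicilin (Mcidas), which do not bind DNA by themselves, act through the transcription factors E2F4 and E2F5. This complex switches on Myb, Ccno and Trp73 during the amplification of centrioles, and then Foxj1 and the RFX factors, which drive the genes of the ciliary axoneme, the microtubule core of the cilium.

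Of the 10 regulators, Myb was the 1 that passed the test. Its mean in PgrCreCdc42f/f oviducts was 48.9% of that in Cdc42f/f oviducts. In the fit over all genes, 1.65% of the tested genes were called at an adjusted p below 0.05 (0.893% lower and 0.762% higher), and of the regulators 1 was called lower and 0 were called higher. The log2 difference was negative for 9 of the 10 regulators, against 49.1% of all tested genes, and the exception was E2f4. In 5 regulators (E2f5, Myb, Ccno, Trp73 and Rfx2) all 3 PgrCreCdc42f/f libraries lay below all 3 Cdc42f/f libraries, which held for 13.9% of all tested genes, and in 0 regulators did they all lie above, against 13.5%. The median log2 difference of the 10 was -0.43, beside 0.006 over all tested genes. In bulk tissue, fewer cells of a type and less RNA per cell cannot be told apart.

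**Figure D1:**
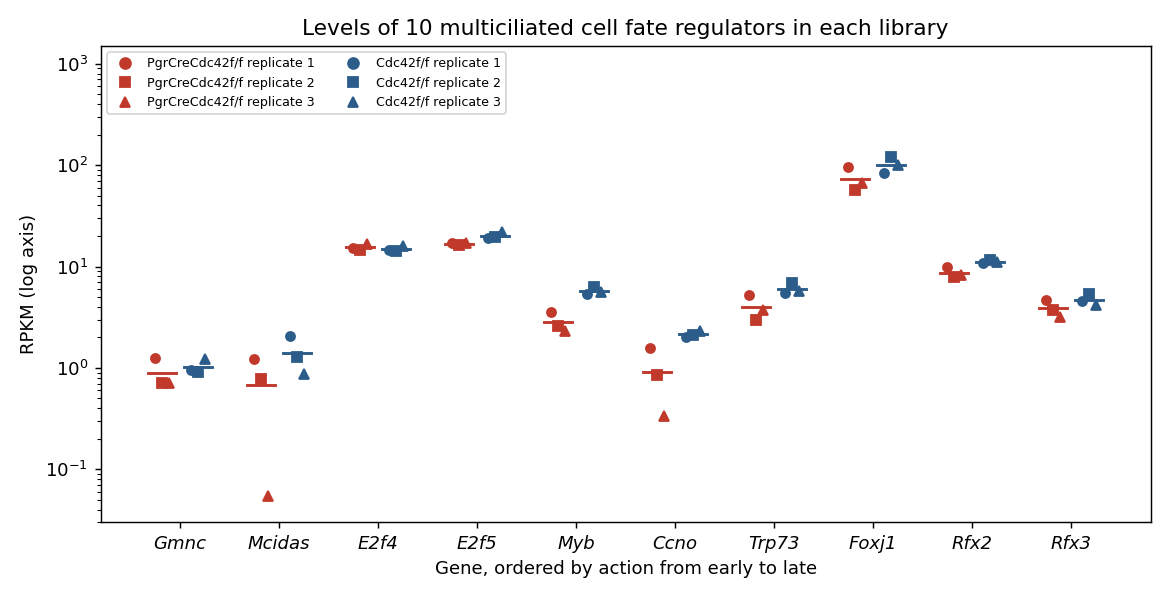
RPKM of each regulator (log axis) in the 3 PgrCreCdc42f/f libraries (red, left of each pair) and the 3 Cdc42f/f libraries (blue, right), with a bar at each group mean and the genes in order of action from early to late. Foxj1 stood highest in both groups, Myb was lower in all 3 PgrCreCdc42f/f libraries, and Mcidas in PgrCreCdc42f/f replicate 3 (0.0539 RPKM) was the lowest value of all.

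The earliest regulator, Gmnc (chromosome 16, 26913553 to 26991652, minus strand, GENCODE M21 on GRCm38, as for all positions of genes here), was measured at 1.25, 0.710 and 0.703 RPKM in PgrCreCdc42f/f oviducts and at 0.946, 0.907 and 1.21 RPKM in Cdc42f/f oviducts. The first PgrCreCdc42f/f library was the highest of all 6 and the other two were the lowest, so the groups overlapped. The log2 difference was -0.22 ± 0.27 (SE), with a 95% interval of -0.86 to 0.42 and a limma adjusted p of 0.684. It was -0.47 without PgrCreCdc42f/f replicate 1, and -0.10 to -0.09 without PgrCreCdc42f/f replicate 2 or 3 or Cdc42f/f replicate 3.

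Mcidas and Ccno lie side by side on chromosome 13, on the plus strand. Mcidas (112993845 to 113000394) encodes multicilin, and Ccno (112987802 to 112990777) encodes a cyclin-like protein needed to build many centrioles in 1 cell. The gap between them was 3067 bases. The stretches upstream of both genes are shown because these neighbours share a short word there. They are 250 bases each, on the plus strand of GRCm38.p6 and end just before the RefSeq start of the gene (chr13:112987552-112987801 for Ccno, chr13:112993618-112993867 for Mcidas). Capitals mark matches to GTTGCCA, part of the site known for RFX factors, and in Ccno also to CAACNG on the opposite strand, the core known for MYB, which overlaps the RFX word:
Ccno: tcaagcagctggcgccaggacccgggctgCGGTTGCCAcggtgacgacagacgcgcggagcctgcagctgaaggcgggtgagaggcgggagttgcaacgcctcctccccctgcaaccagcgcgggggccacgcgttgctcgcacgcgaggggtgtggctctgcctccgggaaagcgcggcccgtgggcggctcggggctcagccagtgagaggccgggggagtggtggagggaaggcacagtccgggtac
Mcidas: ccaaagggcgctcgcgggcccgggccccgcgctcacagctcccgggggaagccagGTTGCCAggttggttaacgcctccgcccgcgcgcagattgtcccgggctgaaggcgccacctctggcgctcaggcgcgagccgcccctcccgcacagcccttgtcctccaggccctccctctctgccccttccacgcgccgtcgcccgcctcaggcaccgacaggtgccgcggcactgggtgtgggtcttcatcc
The RFX word lay 219 to 213 bases before the start of Ccno and 195 to 189 bases before that of Mcidas. On either strand it was found in 3.66% of 32851 mouse windows of this length, and the words were chosen after some of these windows had been read.

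Mcidas was measured at 1.22, 0.783 and 0.0539 RPKM in PgrCreCdc42f/f oviducts and at 2.05, 1.28 and 0.863 RPKM in Cdc42f/f oviducts. Its values were spread widely in both groups, and the groups overlapped. The log2 difference was -1.33 ± 0.81 (SE), with an adjusted p of 0.403 and a 95% interval of -3.28 to 0.61. This value rested on PgrCreCdc42f/f replicate 3, in which only 6 reads were recovered, and without that library it was -0.40 with an adjusted p of 0.655. The exact 95% Poisson interval of those 6 reads was 0.0198 to 0.117 RPKM. That interval covers counting error only, and it is too narrow if a read is not a separate fragment.

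Ccno was measured at 1.57, 0.848 and 0.334 RPKM in PgrCreCdc42f/f oviducts and at 2.02, 2.10 and 2.34 RPKM in Cdc42f/f oviducts. All 3 PgrCreCdc42f/f libraries were below the Cdc42f/f libraries, which lay close together, whereas the PgrCreCdc42f/f values covered a wide range with replicate 3 the lowest. The mean was 0.919 ± 0.623 RPKM in PgrCreCdc42f/f oviducts and 2.15 ± 0.166 RPKM in Cdc42f/f oviducts (SD, n = 3 each), or 42.7% of the Cdc42f/f level. The log2 difference of -1.35 ± 0.46 (SE) did not pass the test (adjusted p = 0.174), and it was -0.83 without PgrCreCdc42f/f replicate 3.

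The next gene along, Cdc20b (113035111 to 113091195), is known to host the miR-449 family and to act in centriole amplification. It was measured at 0.760, 0.425 and 0.152 RPKM in PgrCreCdc42f/f oviducts and at 1.18, 0.827 and 2.18 RPKM in Cdc42f/f oviducts. All 3 PgrCreCdc42f/f libraries were again the lower ones, and the log2 difference was -1.52 ± 0.53 (SE; adjusted p = 0.179). In PgrCreCdc42f/f replicate 3, each of Ccno, Mcidas and Cdc20b had its lowest value of the 6 libraries, from 40, 6 and 13 reads. Dhx29, the neighbour upstream of Ccno, differed by 0.02 (adjusted p = 0.946), and Gpx8, which lies within the span of Cdc20b on the opposite strand, by -0.24 (adjusted p = 0.179). For Gpx8 all 3 PgrCreCdc42f/f libraries were also below the Cdc42f/f libraries, whereas for Dhx29 the groups overlapped. Of the exon bases of Cdc20b, 10.8% are shared with a gene on the other strand, and use of strand in the counting was not given in the sources used here.

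**Figure D2:**
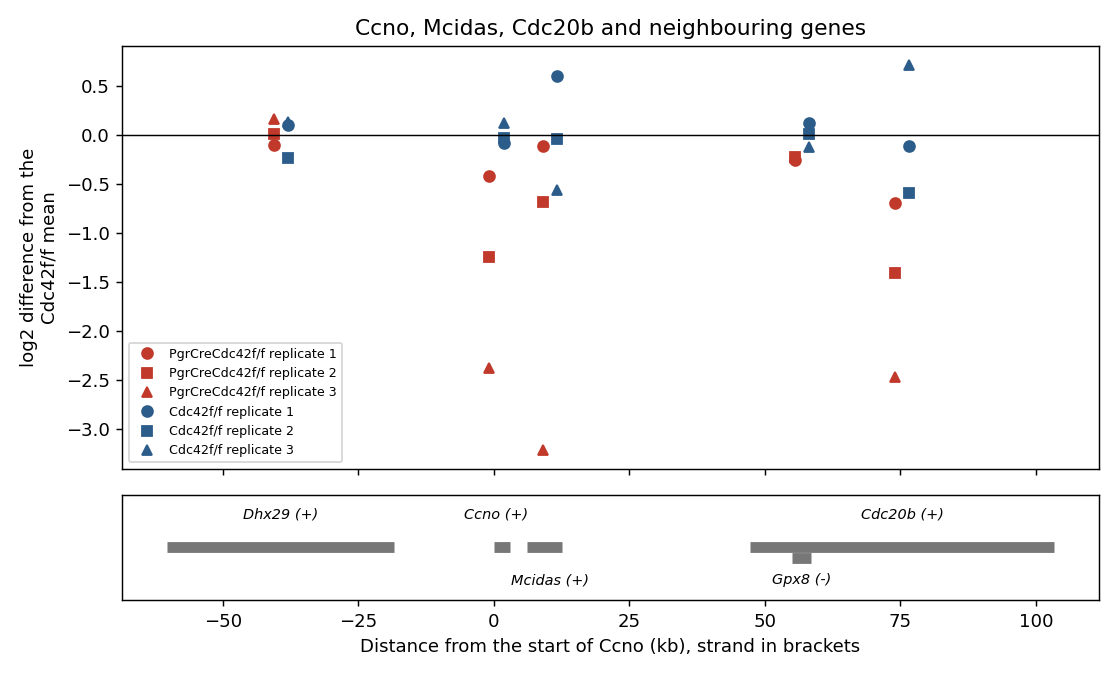
Upper panel, log2 difference of each library from the Cdc42f/f mean for Dhx29, Ccno, Mcidas, Gpx8 and Cdc20b, plotted at the middle of the gene (Ccno, Mcidas and the groups are shifted slightly sideways so that points do not hide each other; PgrCreCdc42f/f red and left, Cdc42f/f blue and right). Lower panel, the extent of the genes in kilobases from the start of Ccno. PgrCreCdc42f/f replicate 3 (red triangle) was the lowest point for Ccno, Mcidas and Cdc20b (-2.37, -3.21 and -2.47), and not for Dhx29.

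Neither gene of the DNA-binding partners of GEMC1 and multicilin passed the test, and the 2 genes were not tested against each other. E2f4 (chromosome 8, 105297663 to 105305370, plus strand) was measured at 15.3, 14.4 and 16.7 RPKM in PgrCreCdc42f/f oviducts and at 14.5, 14.2 and 15.9 RPKM in Cdc42f/f oviducts. The groups overlapped, with a log2 difference of 0.06 ± 0.09 (SE), a 95% interval of -0.15 to 0.27 and an adjusted p of 0.758. E2f4 is active in most cell types, and it was the only regulator with a positive difference, which became -9.7e-05 without PgrCreCdc42f/f replicate 3.

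E2f5 (chromosome 3, 14578641 to 14606309, plus strand) was measured at 17.2, 16.4 and 16.9 RPKM in PgrCreCdc42f/f oviducts and at 18.9, 19.7 and 22.0 RPKM in Cdc42f/f oviducts. All 3 PgrCreCdc42f/f libraries lay below the Cdc42f/f libraries, by a small margin. The log2 difference of -0.26 ± 0.08 (SE) had an unadjusted p of 0.0161 and an adjusted p of 0.146, and the mean was 83.2% of the Cdc42f/f level.

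Myb encodes a transcription factor of dividing progenitors that also acts early in multiciliated cells, while centrioles are being made. The gene lies on chromosome 10 (21124935 to 21160984, minus strand), and its upstream stretch is shown because Myb is the regulator that passed the test. The 250 bases (chr10:21160985-21161234, minus strand of GRCm38.p6, RefSeq) end just before the start, and capitals mark a match to TTTGGCG, a form of the E2F site:
Myb: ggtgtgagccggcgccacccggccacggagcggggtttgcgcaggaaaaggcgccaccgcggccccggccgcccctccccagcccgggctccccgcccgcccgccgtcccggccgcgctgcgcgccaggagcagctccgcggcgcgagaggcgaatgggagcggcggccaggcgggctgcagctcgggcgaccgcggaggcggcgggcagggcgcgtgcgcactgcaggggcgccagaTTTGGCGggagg
The word lay 12 to 6 bases before the start and was found in 1.26% of all windows. A match of letters is not a measured binding site.

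Myb was measured at 3.54, 2.60 and 2.33 RPKM in PgrCreCdc42f/f oviducts and at 5.40, 6.30 and 5.62 RPKM in Cdc42f/f oviducts. The groups were well apart, and the highest PgrCreCdc42f/f library was below the lowest Cdc42f/f library. The mean was 2.82 ± 0.635 RPKM in PgrCreCdc42f/f oviducts and 5.77 ± 0.468 RPKM in Cdc42f/f oviducts (SD, n = 3 each). Myb fell by 1.02 on the log2 scale (SE 0.17, 95% interval -1.43 to -0.62, limma adjusted p = 0.0455), from 977 to 1479 reads in PgrCreCdc42f/f libraries and 2098 to 2606 reads in Cdc42f/f libraries. The call stood near the threshold: leaving out PgrCreCdc42f/f replicate 2 or 3, or any of the Cdc42f/f libraries, gave adjusted p values of 0.0957 to 0.154, with differences of -0.90 to -1.07, and leaving out PgrCreCdc42f/f replicate 1 gave 0.0270. Of the exon bases of Myb, 6.26% are shared with a gene on the opposite strand.

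Trp73 (chromosome 4, 154056253 to 154140208, minus strand) encodes p73, a relative of p53 that is needed for multiciliated cells and acts upstream of Foxj1. It was measured at 5.28, 2.94 and 3.75 RPKM in PgrCreCdc42f/f oviducts and at 5.53, 6.90 and 5.75 RPKM in Cdc42f/f oviducts. All 3 PgrCreCdc42f/f libraries lay below the Cdc42f/f libraries, but the first one only just. The log2 difference was -0.62 ± 0.22 (SE), with an adjusted p of 0.175 and a mean at 65.8% of the Cdc42f/f level. Exon bases shared with a gene on the opposite strand made up 5.06% of Trp73 and 1.46% of E2f5.

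Foxj1 (chromosome 11, 116330704 to 116335399, minus strand), the forkhead factor that drives motile cilium genes, was the most abundant regulator per length in all 6 libraries. It was measured at 95.5, 57.2 and 66.3 RPKM in PgrCreCdc42f/f oviducts and at 83.9, 120.4 and 99.7 RPKM in Cdc42f/f oviducts. The groups overlapped, since the first PgrCreCdc42f/f library was above the first Cdc42f/f library. The mean was 73.0 ± 20.02 RPKM in PgrCreCdc42f/f oviducts and 101.3 ± 18.3 RPKM in Cdc42f/f oviducts (SD, n = 3 each). The log2 difference of -0.49 ± 0.22 (SE; 95% interval -1.01 to 0.03) did not pass the test, with an adjusted p of 0.266.

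The RFX factors bind the X-box of many ciliary promoters and act with FOXJ1. Rfx2 (chromosome 17, 56775897 to 56831013, minus strand) was measured at 9.81, 7.82 and 8.30 RPKM in PgrCreCdc42f/f oviducts and at 10.8, 11.7 and 11.1 RPKM in Cdc42f/f oviducts. The groups did not overlap, and the log2 difference was -0.37 ± 0.10 (SE) with an unadjusted p of 0.0102 and an adjusted p of 0.119. Rfx3 (chromosome 19, 27761721 to 28011166, minus strand), which is also needed for primary cilia, was measured at 4.66, 3.74 and 3.17 RPKM in PgrCreCdc42f/f oviducts and at 4.54, 5.39 and 4.14 RPKM in Cdc42f/f oviducts. Here the groups overlapped, and the log2 difference was -0.28 ± 0.17 (SE; adjusted p = 0.400). It was -0.42 without PgrCreCdc42f/f replicate 1, -0.15 without replicate 3 and -0.18 without Cdc42f/f replicate 2.

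**Figure D3:**
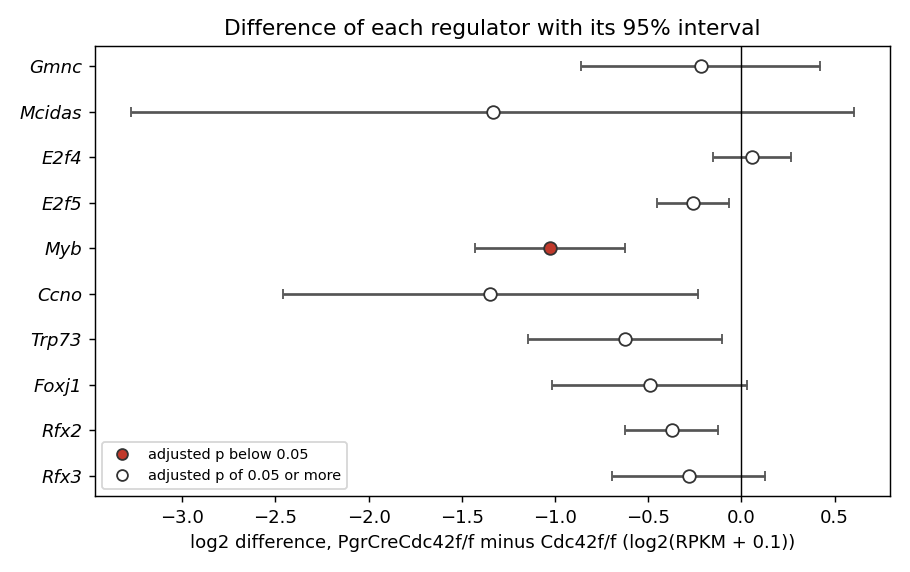
log2 difference of each regulator (PgrCreCdc42f/f minus Cdc42f/f, on log2(RPKM + 0.1)) with its 95% interval, early regulators at the top. Myb is the filled point (adjusted p = 0.0455), and Mcidas has the widest interval, from -3.28 to 0.61.

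The order of the levels per length was nearly shared by the groups. In PgrCreCdc42f/f oviducts Foxj1 stood first, followed by E2f5 and E2f4, which overlapped each other, then Rfx2, then Trp73, Rfx3 and Myb, whose neighbours overlapped, and last Ccno, Gmnc and Mcidas, which also overlapped. In Cdc42f/f oviducts Foxj1, E2f5, E2f4 and Rfx2 followed each other without overlap, Myb overlapped with Trp73 and stood above Rfx3, and Ccno, Mcidas and Gmnc were again at the low end. Myb thus ranked below Rfx3 in PgrCreCdc42f/f oviducts (2.82 and 3.86 RPKM) and above it in Cdc42f/f oviducts (5.77 and 4.69 RPKM).

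The 3 PgrCreCdc42f/f libraries did not depart from the Cdc42f/f mean to the same extent. The median of the 10 regulators relative to that mean was -0.15 on the log2 scale in PgrCreCdc42f/f replicate 1, -0.60 in replicate 2 and -0.57 in replicate 3, against -0.09 to 0.02 in the Cdc42f/f libraries. PgrCreCdc42f/f replicate 1 was the lowest library for 0 regulators, replicate 2 for 4 and replicate 3 for 5, and Cdc42f/f replicate 2 was the lowest for 1, E2f4, and the highest for 5. For Foxj1, replicate 1 was -0.07 from the Cdc42f/f mean, while for Myb it was -0.69. Leaving out PgrCreCdc42f/f replicate 1 moved the median difference of the regulators to -0.58, and leaving out each of the other libraries gave -0.51 to -0.32.

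**Figure D4:**
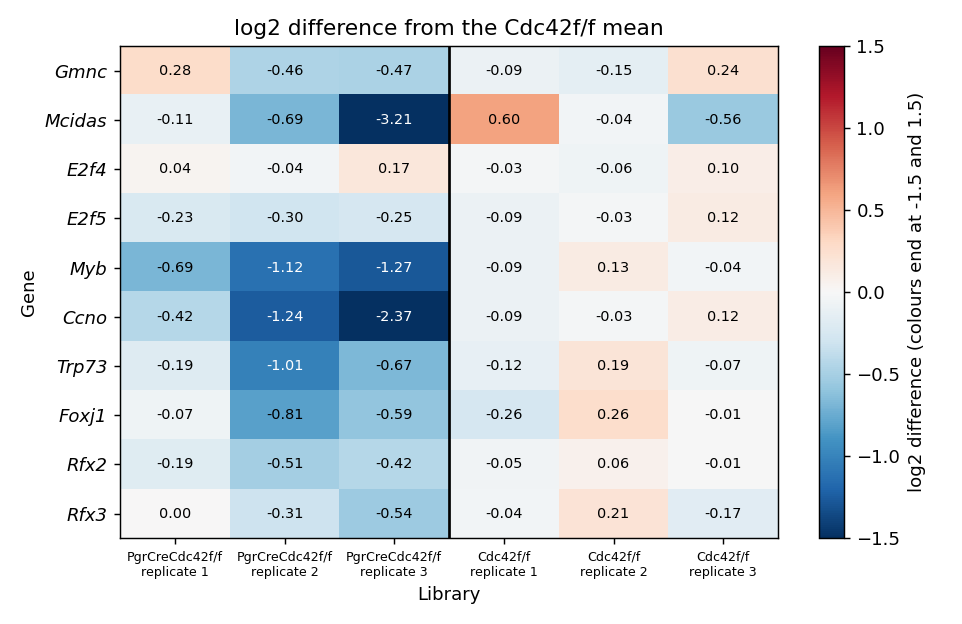
log2 difference of each library from the Cdc42f/f mean for the 10 regulators (rows, early to late), with PgrCreCdc42f/f libraries left and Cdc42f/f libraries right of the line. Myb was between -0.69 and -1.27 in the 3 PgrCreCdc42f/f libraries, Ccno reached -2.37 and Mcidas -3.21 in replicate 3, and E2f4 stayed between -0.04 and 0.17.

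Myb, Mcidas, Ccno and Trp73, 4 regulators chosen with earlier results known, were set against Foxj1 within each library, with exact two-sided permutation tests, for which 3 libraries against 3 cannot give a p under 0.1. The log2 ratio of Myb to Foxj1 was -4.72, -4.41 and -4.77 in PgrCreCdc42f/f oviducts and -3.93, -4.23 and -4.13 in Cdc42f/f oviducts. The groups did not overlap, and the difference of -0.53 had the smallest p possible (exact p = 0.1; 0.167 adjusted over 5 ratios), but with a pseudocount of 1 it was -0.35 (exact p = 0.2). For Ccno the ratio was -5.84, -5.92 and -7.26 in PgrCreCdc42f/f oviducts and -5.31, -5.78 and -5.36 in Cdc42f/f oviducts. These did not overlap either, with a difference of -0.86 (exact p = 0.1; adjusted 0.167), which was -0.40 without PgrCreCdc42f/f replicate 3 and -0.28 with a pseudocount of 1 (exact p = 0.4). The ratio of Trp73 to Foxj1 differed by -0.13 (exact p = 0.1; adjusted 0.167), and by -0.04 with a pseudocount of 1 (exact p = 0.8) and -0.07 without Cdc42f/f replicate 1. The ratio of Mcidas differed by -0.84 (exact p = 0.6; adjusted 0.75), which turned to 0.04 without PgrCreCdc42f/f replicate 3 and was -0.06 with a pseudocount of 1. Each of these 4 had a more negative log2 difference than Foxj1. The other 5 regulators had differences of -0.37 to 0.06, less negative than that of Foxj1, and their ratios to Foxj1 were not tested.

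Foxj1 was also set against the genes of the axoneme. Relative to the median of 24 axoneme genes, its log2 level was 2.06, 2.02 and 2.13 in PgrCreCdc42f/f oviducts and 2.02, 1.97 and 2.19 in Cdc42f/f oviducts. The groups lay within the same range, and the difference was 0.01 (exact p = 1.0). Its sign depended on the setting, with -0.007 at a pseudocount of 1 and -0.035 without Cdc42f/f replicate 2.

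**Figure D5:**
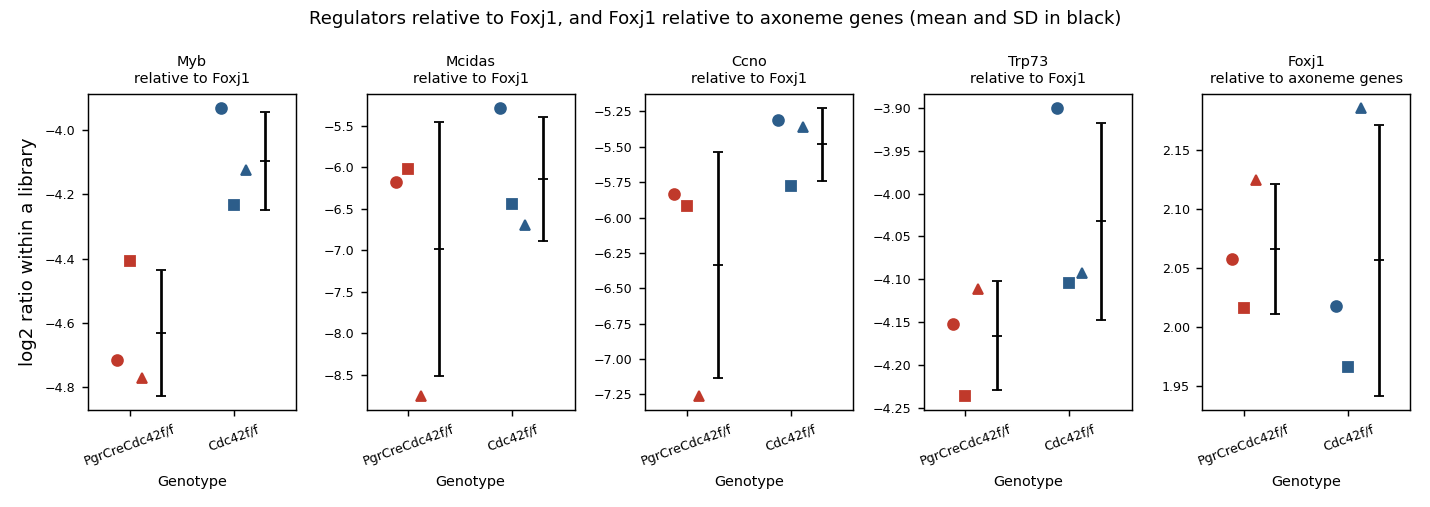
log2 ratio within each library of Myb, Mcidas, Ccno and Trp73 to Foxj1, and of Foxj1 to the median of 24 axoneme genes (PgrCreCdc42f/f red and left, Cdc42f/f blue and right; circle, square and triangle are replicates 1, 2 and 3; black bars are mean and SD; each panel has its own scale). The groups do not overlap for Myb, Ccno and Trp73 relative to Foxj1, and overlap for the other panels. For Trp73 they nearly touch, at -4.111 in PgrCreCdc42f/f replicate 3 and -4.105 in Cdc42f/f replicate 2.

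The other genes of the same pathway were read from lists taken with earlier results known. Of the 24 axoneme genes, 0 were called in either direction (1.65% of all tested genes). A negative difference was found for 23 (49.1% of all tested genes), and 9 lay wholly below the Cdc42f/f libraries (13.9% of all tested genes), with a median of -0.54. Among them Dnaaf1, an assembly factor of dynein arms, was measured at 10.5, 6.63 and 7.51 RPKM in PgrCreCdc42f/f oviducts and at 13.1, 21.1 and 16.0 RPKM in Cdc42f/f oviducts (log2 difference -1.02, adjusted p = 0.0784). The log2 difference was -0.93 for Hydin of the central pair (adjusted p = 0.0938), -0.69 for Ccdc40, a ruler of the axoneme repeat (adjusted p = 0.102), and -0.50 for Rsph1 of the radial spokes (adjusted p = 0.127). Dnaaf1, Ccdc40, Rsph1 and Deup1 were reported as reduced by the study, on these libraries and by qPCR. It reported the same of Mcidas, Trp73, Foxj1, Ccno and Myb among the regulators. All of these genes had thus been picked out on these libraries and are not independent of them. By staining, the study also reported fewer p73 positive cells and far fewer ciliated cells in the isthmus of PgrCreCdc42f/f oviducts. Its electron microscopy found normal motile cilia missing there. In organoids of oviduct epithelium, it reported that induced differentiation raised Foxj1, Trp73, Rfx3, Rfx2, Myb, Mcidas and Gmnc only with Cdc42 intact. The qPCR, staining, microscopy and organoids of the study were not examined here.

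Genes of centriole amplification were mixed. Of 15, 0 were called (1.65% of all tested genes), 11 were negative (49.1%) and the median was -0.02. Of these genes, 2 lay wholly below the Cdc42f/f libraries (13.9% of all tested genes) and 1 wholly above (13.5%). Deup1, which builds the deuterosome on which centrioles form, was measured at 5.08, 3.69 and 2.91 RPKM in PgrCreCdc42f/f oviducts and at 5.55, 6.09 and 6.42 RPKM in Cdc42f/f oviducts, without overlap (log2 difference -0.65, adjusted p = 0.144). Ccdc78, another deuterosome gene, differed by -0.45 (adjusted p = 0.236). The cyclin gene Ccna1 went the other way, at 1.55, 2.10 and 1.90 RPKM in PgrCreCdc42f/f oviducts and 0.928, 1.54 and 1.08 RPKM in Cdc42f/f oviducts (log2 difference 0.62, adjusted p = 0.188), also without overlap.

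Of the partners and relatives of the regulators, 16 of 20 were tested, 0 were called (1.65% of all tested genes) and the median was 0.06. Among those tested, 2 lay wholly below the Cdc42f/f libraries (13.9% of all tested genes) and 0 wholly above (13.5%). Geminin (Gmnn), which can pair with multicilin and GEMC1 and hold back their action, was measured at 2.89, 2.94 and 3.57 RPKM in PgrCreCdc42f/f oviducts and at 3.72, 4.26 and 5.73 RPKM in Cdc42f/f oviducts. The groups did not overlap, with a log2 difference of -0.51 (adjusted p = 0.180). Tfdp1, which encodes DP1, the partner of the E2F proteins, differed by 0.18 (adjusted p = 0.434), Rfx1 by -0.24 (adjusted p = 0.194) and Rfx5 by -0.11 (adjusted p = 0.519).

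Notch signalling holds cells back from the multiciliated fate. Of 12 tested Notch genes 1 was called lower (0.893% of all tested genes), 0 were called higher (0.762%), and 9 were negative (49.1%), with a median of -0.22. Among them 4 lay wholly below the Cdc42f/f libraries (13.9% of all tested genes). The called gene was Hey1, a Notch target, at 4.17, 2.77 and 3.55 RPKM in PgrCreCdc42f/f oviducts and 7.49, 8.04 and 8.32 RPKM in Cdc42f/f oviducts (log2 difference -1.18, adjusted p = 0.0292). Its relatives Heyl (-1.27, adjusted p = 0.0559) and Hey2 (-1.37, adjusted p = 0.103) and the receptor Notch2 (-0.46, adjusted p = 0.101) did not pass the test, although for each of them the groups did not overlap. The study had examined Hes1, Hey1 and Hey2 on these libraries, so they are not independent of them. Hes1, named here after its value was seen, differed by -0.18 (adjusted p = 0.419).

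Profiles most like those of the regulators were sought among 13089 other tested genes that averaged 1 RPKM or more. Predicted genes (Gm), Rik clones and pseudogenes were left out, so a nearer profile among them would not be named. Nearness was the root mean square (RMS) difference of log2 values centred over the 6 libraries. The nearest to Foxj1 were Cfap73 (RMS 0.0369), Slc24a4 (0.0570), Zmynd10 (0.0584), Ppp1r36 (0.0660) and Crip3 (0.0709), beside an RMS of 0.362 for the profile of Foxj1 itself. The nearest to Trp73 were Rnf186 (0.0584), Ccdc154 (0.0650), Acss3 (0.0672), Daw1 (0.0701) and Slc24a4 (0.0727), beside 0.405. Slc24a4 was near to both. The genes nearest to Myb were farther from it, namely Rab11fip4 (0.0995), Tmem266 (0.106), Ttll13 (0.113), Acot1 (0.115) and Ncmap (0.116), beside 0.545. With 6 libraries and 2 groups these distances are descriptions and carry no test.

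The tissue around the multiciliated cells was read from marker lists. Of 9 epithelial markers 0 were called (1.65% of all tested genes), 4 were negative (49.1%) and the median difference was 0.08. Their sums were 1350 to 1596 RPKM in PgrCreCdc42f/f oviducts and 1432 to 1472 RPKM in Cdc42f/f oviducts. Among them 4 lay wholly above the Cdc42f/f libraries (13.5% of all tested genes) and 1 wholly below (13.9%). Krt8 (0.57, adjusted p = 0.0524), Epcam (0.39, adjusted p = 0.0625), Cldn7 (0.32, adjusted p = 0.149) and Cdh1 (0.09) were higher in every PgrCreCdc42f/f library. Grhl2 (-0.16) was lower in every PgrCreCdc42f/f library. The groups overlapped for Krt18 (-0.24, adjusted p = 0.372), Krt19 (-0.17), Esrp1 (-0.10) and Cldn3 (0.08). Relative to the median of these markers, the median of the 10 regulators was -4.66, -5.55 and -5.40 on the log2 scale in PgrCreCdc42f/f oviducts and -4.40, -4.16 and -4.26 in Cdc42f/f oviducts, a difference of -0.93. These are medians of levels, which rest on the genes in the middle of each list, and the medians of the differences gene by gene were closer together, at -0.43 for the regulators and 0.08 for the epithelial markers. Of 6 secretory cell markers 0 were called (1.65% of all tested genes), 4 were negative (49.1%) and the median was -0.26. Of these 6, 2 lay wholly below the Cdc42f/f libraries (13.9% of all tested genes) and 1 wholly above (13.5%). Pax8, the transcription factor of oviduct secretory cells, was measured at 18.6, 12.8 and 15.1 RPKM in PgrCreCdc42f/f oviducts and at 23.0, 32.3 and 27.8 RPKM in Cdc42f/f oviducts (log2 difference -0.84, adjusted p = 0.0683). Krt7 differed by 0.64 (adjusted p = 0.0854), Sox17 by -0.32 (adjusted p = 0.257) and Wt1 by -0.20 (adjusted p = 0.242). The groups overlapped for Ovgp1 (-0.36, adjusted p = 0.552) and Msln (0.26, adjusted p = 0.622).

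Markers of other tissues were read in the same way. All 8 smooth muscle markers had a positive difference, with 0 negative (49.1% of all tested genes), 0 called (1.65%) and a median of 0.44. Of the 8, 2 lay wholly above the Cdc42f/f libraries (13.5% of all tested genes) and 0 wholly below (13.9%). These 2 were Myh11 (0.72, adjusted p = 0.128) and Des (0.42, adjusted p = 0.171). The sums of the 8 were 2357 to 2922 RPKM in PgrCreCdc42f/f oviducts and 1682, 1671 and 2593 RPKM in Cdc42f/f oviducts, so the groups overlapped. All 7 tested of 10 leukocyte markers were positive, with 0 negative (49.1% of all tested genes), 0 called (1.65%) and a median of 0.39. Of the 7, 4 lay wholly above the Cdc42f/f libraries (13.5% of all tested genes) and 0 wholly below (13.9%). The sums of the 10 were 132.9 to 186.9 RPKM in PgrCreCdc42f/f oviducts and 99.1 to 106.1 RPKM in Cdc42f/f oviducts. C1qa alone gave 63.2 to 109.4 RPKM and 40.2 to 45.9 RPKM of these sums. The log2 difference was 0.89 for C1qa (adjusted p = 0.0783), 0.63 for Cd68 (adjusted p = 0.106) and 0.04 for Csf1r (adjusted p = 0.888). The markers of oocytes and embryos summed to 0.460 to 0.955 RPKM in PgrCreCdc42f/f oviducts and 0.536 to 0.859 RPKM in Cdc42f/f oviducts, and those of spermatids did not exceed 0.337 RPKM in any library. The part of tissue makeup in the differences of the regulators was not tested.

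Cdc42 itself was measured at 113.6, 125.5 and 120.9 RPKM in PgrCreCdc42f/f oviducts and at 127.6, 130.2 and 142.4 RPKM in Cdc42f/f oviducts. The groups did not overlap, but the log2 difference was only -0.15 (adjusted p = 0.359), and a value over the whole gene is a weak check of a deletion of exon 2 in part of the tissue. Pgr, the gene that carries the Cre, differed by -0.31 (adjusted p = 0.105). The reads recovered from the RPKM values summed to between 38.1 M and 42.6 M per library. Rows whose reads could not be recovered, some of them abundant, are left out, so this sum is not the full depth.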

How the data were processed

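RNA was measured by RNA-seq (total RNA, BGISEQ-500) in 6 libraries of whole mouse oviduct, 3 per genotype, grouped by the labels. The authors deposited RPKM values per gene symbol. Their processing notes name HISAT2 and mm10 (GRCm38), and the methods name Tophat2 for RPKM. The annotation they used is not given in the sources used here.

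A gene entered the test at 0.5 RPKM or more in 3 or more libraries. The test was that of limma 3.58.1 (R 4.3.3; two-sided, variance trend, no covariates) on log2(RPKM + 0.1), with Benjamini-Hochberg adjustment over 17584 genes and a call at an adjusted p below 0.05. Differences are PgrCreCdc42f/f minus Cdc42f/f, and this scale understates the change of low genes. P values measure only the spread between these libraries. The test was checked on simulated data in which each gene varied independently, which does not cover genes that shift together in a library. The members and lists were chosen with earlier results of these data known. The genes named are the 10 regulators, Cdc42, Pgr, the neighbours of Ccno, called list genes, the 4 smallest p values of each list and the 5 nearest profiles of Foxj1, Myb and Trp73. All 9 epithelial markers, Ovgp1, Msln and Csf1r were named after their values were seen.

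Reads were recovered from RPKM and GENCODE M21 exon lengths (GRCm38): 98.7% of 35362 rows were whole within 0.01 of a read in all libraries. Even numbers made up 64.9% of the read numbers from 1 to 20, and a read may thus not be a separate fragment. Positions are from GENCODE M21, upstream stretches from RefSeq on GRCm38.p6. Upstream stretches of 250 bases were found for 7 regulators (9 stretches), not for Foxj1, E2f4 and E2f5. Words were searched on both strands. The RFX word GTTGCCA was found in Ccno and Mcidas and the E2F word TTTGGCG in Myb. The MYB core CAACNG was found in Ccno, Gmnc and Rfx2 (29.3% of all windows). The forkhead word GTAAACA was found in 0 regulators (3.17% of all windows).

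Each of these was changed in turn: the pseudocount (1 or 0.01), the filter (none, or 2 RPKM on average), the scaling (median ratio or quantiles), the variance trend (left out), a block for replicate number, voom of limma on the recovered reads, and each library (left out). For voom, the library sizes were sums of the recovered reads, which are not the full depth.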

Additional observations from a re-analysis of the deposited data

How the results depend on the processing

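The log2 difference of Myb was between -1.19 and -0.84 over 15 alternatives, with adjusted p values of 0.0270 to 0.154, and it was called in 7. It was not called with no filter (0.0775), with no variance trend (0.0639) or with the replicate block (0.140). The other 9 regulators were called in 0 alternatives, and the median difference of the 10 was -0.58 to -0.32. Requiring 2 RPKM on average gave no value for Gmnc, Mcidas and Ccno, since they did not pass it. The count of called regulators was 0 with no filter, no variance trend and the replicate block, and 0 to 1 when a library was left out (1 only without PgrCreCdc42f/f replicate 1).

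Of all genes, 134 were called higher and 157 lower. With no filter these were 57 and 51, with no variance trend 75 and 112, with limma voom on the recovered reads 205 and 269, and when a library was left out 9 to 132 and 3 to 179. With the replicate block the limma counts were 0 and 0, with 3276 genes at an unadjusted p under 0.05. Same-numbered libraries did not deviate together (correlations -0.033, -0.074 and 0.081), so the numbers were not taken as pairs.

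When a library was left out, the difference of E2f4 was -9.7e-05 to 0.103 and that of Mcidas relative to Foxj1 -1.326 to 0.041, with -9.7e-05 and 0.041 without PgrCreCdc42f/f replicate 3. Foxj1 relative to the axoneme genes was -0.007 with a pseudocount of 1, and -0.035 to 0.075 when a library was left out, with values of -0.019 without PgrCreCdc42f/f replicate 3, -0.009 without Cdc42f/f replicate 1 and -0.035 without Cdc42f/f replicate 2. The cause of these changes was not tested. With a pseudocount of 1 the difference of Mcidas was -0.547 and that of Ccno -0.765. Mcidas, Ccno and Cdc20b were measured with 6 to 288 reads per library.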
